A study of Homo sapiens with 21 samples.

Results

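The 35 genes described here encode the enzymes, carriers and regulators of fatty acid oxidation and ketone body formation, together with the nuclear receptor gene PPARA and several of its known target genes. They were taken by gene symbol from a fixed list, and all 35 were found among the 37637 features of the count table. The cells were HepG2, an established human line derived from a liver tumour, kept in serum-free DMEM for 24 h with caffeine at 0, 0.01, 0.1, 1, 10, 100 or 1000 µM. The control group (0 µM, labelled untreated) was in the same serum-free medium, so every group lacked serum. Each of the 7 groups had 3 libraries, which the series describes as biological replicates, and poly(A) RNA was sequenced. A single cell line at a single time was studied. In bulk RNA, less transcript per cell and fewer cells holding the transcript cannot be told apart.

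The 21 libraries held 23502519 to 44815552 counts, and levels are given as CPM, counts relative to the library size after TMM scaling. The libraries fell into 3 sets when clustered on their 13 mitochondrial mRNAs. Set A held 11 libraries (all of 0, 0.01 and 0.1 µM, and replicates 1 and 2 of 1 µM), with 9.95% to 14.2% mitochondrial counts. Set B held 7 libraries (replicate 3 of 1 µM, all of 10 µM, replicate 2 of 100 µM, replicates 1 and 2 of 1000 µM), with 4.72% to 4.94%. Set C held 3 libraries (replicates 1 and 3 of 100 µM and replicate 3 of 1000 µM), with 11.8% to 12.8%. All control libraries were in set A, so for 10, 100 and 1000 µM dose and set overlap, and the 1 µM group alone links sets A and B. Most changes against control at these doses are therefore given beside the value from a fit with the library set as a term, and 1000 µM was also compared with 10 µM inside set B. Those set term values rest on replicate 3 of 1 µM, the only library of that group in set B, set against its replicates 1 and 2. All 12 listed hepatocyte markers were present, with albumin at 12469 ± 2556 CPM (SD, n = 3) in the controls, and their summed level ran from 31174 to 46121 CPM. Of 13 listed markers of other cells 11 were in the table, with a summed level of 948.1 to 2001 CPM, most of it LYZ (801.1 to 1901 CPM). PTPRC, CD3E, COL1A1, COL3A1, DCN, DES and CDH5 had at most 6 counts in any library.

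Long-chain fatty acids are bound in the cytosol, activated to acyl-CoA by the ACSL enzymes, and carried into mitochondria as carnitine esters by CPT1A, SLC25A20 and CPT2. There each cycle of beta oxidation passes through an acyl-CoA dehydrogenase, a hydratase, a hydroxyacyl-CoA dehydrogenase and a thiolase, and electrons leave through ETFA, ETFB and ETFDH. Peroxisomes shorten very long and branched chains with their own enzymes. In liver, fasting raises many of these genes through PPARA, which binds DNA as a partner of RXR, and the acetyl-CoA made can be turned into ketone bodies.

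The bases before the gene start are shown for 5 genes of contrasting behaviour: 3 with higher counts at 1000 µM (CPT1A, FGF21 and PDK4), FABP1, which was lower, and CREB3L3, whose window held the one match to the looser PPAR element. They come from the RefSeq promoter table (GRCh38.p14; 250 bases before to 50 after the start), limited to the bases before the gene start of both RefSeq and GENCODE 29, and read 5′ to 3′ on the gene's strand. Capitals mark a match to the looser PPAR element (2 copies of AGGNCA spaced by 1 base) in CREB3L3 and to TGACG, on the opposite strand, in PDK4.
CPT1A (chr11:68844411-68844527, minus strand): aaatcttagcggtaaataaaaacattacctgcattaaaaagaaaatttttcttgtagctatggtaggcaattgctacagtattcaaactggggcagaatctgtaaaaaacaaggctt
FGF21 (chr19:48755274-48755523, plus strand): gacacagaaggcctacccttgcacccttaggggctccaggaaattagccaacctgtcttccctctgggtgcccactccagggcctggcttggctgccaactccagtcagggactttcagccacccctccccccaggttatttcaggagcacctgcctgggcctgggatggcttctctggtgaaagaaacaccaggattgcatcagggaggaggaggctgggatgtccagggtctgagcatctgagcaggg
PDK4 (chr7:95596517-95596766, minus strand): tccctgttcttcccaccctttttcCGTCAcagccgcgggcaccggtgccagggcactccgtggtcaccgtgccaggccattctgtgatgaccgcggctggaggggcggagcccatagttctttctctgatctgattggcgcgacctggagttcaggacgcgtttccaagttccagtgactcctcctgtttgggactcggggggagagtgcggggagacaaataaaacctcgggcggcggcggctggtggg
FABP1 (chr2:88128117-88128312, minus strand): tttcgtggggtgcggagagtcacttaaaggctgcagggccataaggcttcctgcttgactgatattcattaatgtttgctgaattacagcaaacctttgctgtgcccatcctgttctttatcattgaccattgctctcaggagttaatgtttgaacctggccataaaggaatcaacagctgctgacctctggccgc
CREB3L3 (chr19:4153381-4153600, plus strand): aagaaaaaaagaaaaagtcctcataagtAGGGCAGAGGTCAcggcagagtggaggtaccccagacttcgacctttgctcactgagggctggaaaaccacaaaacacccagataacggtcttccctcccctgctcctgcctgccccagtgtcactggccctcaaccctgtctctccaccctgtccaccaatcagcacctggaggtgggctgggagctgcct
Windows were listed for 29 of the 35 genes and searched on both strands at their full 300 bases. The exact consensus of the PPAR and RXR element, 2 copies of AGGTCA in the same direction with 1 base between them, was in none of the 29. It was in 8 of 35116 windows of the table (0.0228%). The looser form with AGGNCA copies, which includes the strict form, was in CREB3L3, starting 222 bases before the RefSeq gene start, and in 0.31% of all windows. The full cyclic AMP response element TGACGTCA was in none of the 29 genes and 1.85% of windows. Its shorter core TGACG, which the full element contains, was in 8 genes (ACADSB, ACSL1, ACSL4, CPT2, CROT, HADH, HADHB and PDK4). By window it was in 8 of the 41 windows of the 29 genes and in 24.6% of all windows. A match of letters is a description of the window only. Elements that depart further from these letters were not searched for, so a lack of matches does not show that a gene lacks such an element.

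At 1000 µM the pathway changed in both directions. CPT1A, ACSL3, ACSL5, ACOX2, BDH1 and ACADVL rose, while FABP1, ACOT1, ACOT2, SLC25A20, CPT2, HADH, ETFDH, EHHADH, ACAA1 and CROT fell, in the fits with and without the library set. PPARA itself did not pass the test at any dose. Of the 35 genes 34 passed the filter on low counts, and PDK4 did not pass. FGF21 passed only through its counts at 1000 µM, so its call there was favoured by the filter; it is left out of the counts in this paragraph and the next and is described by its reads further on. At 1000 µM against 0, 25 of the other 33 (75.8%) passed an adjusted p of 0.05 in edgeR's quasi-likelihood test, 12 higher and 13 lower, where 57.6% of the 17951 features tested did (28.5% higher and 29.1% lower). In the fit with a set term 19 of 33 (57.6%) did, 6 higher and 13 lower, against 38.0% of all features (18.2% higher and 19.8% lower). Both fits called 16 of 33 (48.5%) in 1 direction, 6 higher and 10 lower, where 34.3% of all features were so called (16.7% higher and 17.6% lower). The median log2 fold change of the 33 was -0.00489, and -0.22 with the set term, beside -0.01 and -0.03 over all features.

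Fewer genes were called at lower doses. At 100 µM 16 of 33 passed (12 higher and 4 lower) where 46.6% of all features did (23.6% higher and 22.9% lower). With the set term 7 passed (3 higher and 4 lower), where 17.3% of all features did (9.14% higher and 8.21% lower). The 6 called in both fits at 100 µM were ACSL3, HADH and ACOX2, all higher, and SLC25A20, ETFDH and ACOT1, all lower, where 15.6% of all features were called in both. At 10 µM 13 passed (9 higher and 4 lower) where 14.8% of all features did (7.27% higher and 7.49% lower), and 0 with the set term, where 0.0279% did. In that fit 2 of all 34 had an unadjusted p under 0.05, beside 4.94% of all features. Between the doses, 18 of 33 differed at 1000 against 100 µM (5 higher and 13 lower), where 44.0% of all features did (21.8% higher and 22.3% lower). At 1000 against 10 µM 22 differed (7 higher and 15 lower), where 52.1% did (26.1% higher and 26.0% lower). With the set term these were 19 and 23 (46.3% and 59.1% of all features). Inside library set B, with 2 libraries at 1000 µM and 3 at 10 µM, 26 of 33 differed (9 higher and 17 lower), where 65.1% of 18323 features did (31.5% higher and 33.6% lower). Counting libraries alone, 10 of 33 had every 1000 µM library above every control and 15 had every one below (28.1% and 28.5% of all features).

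**Figure D1:**
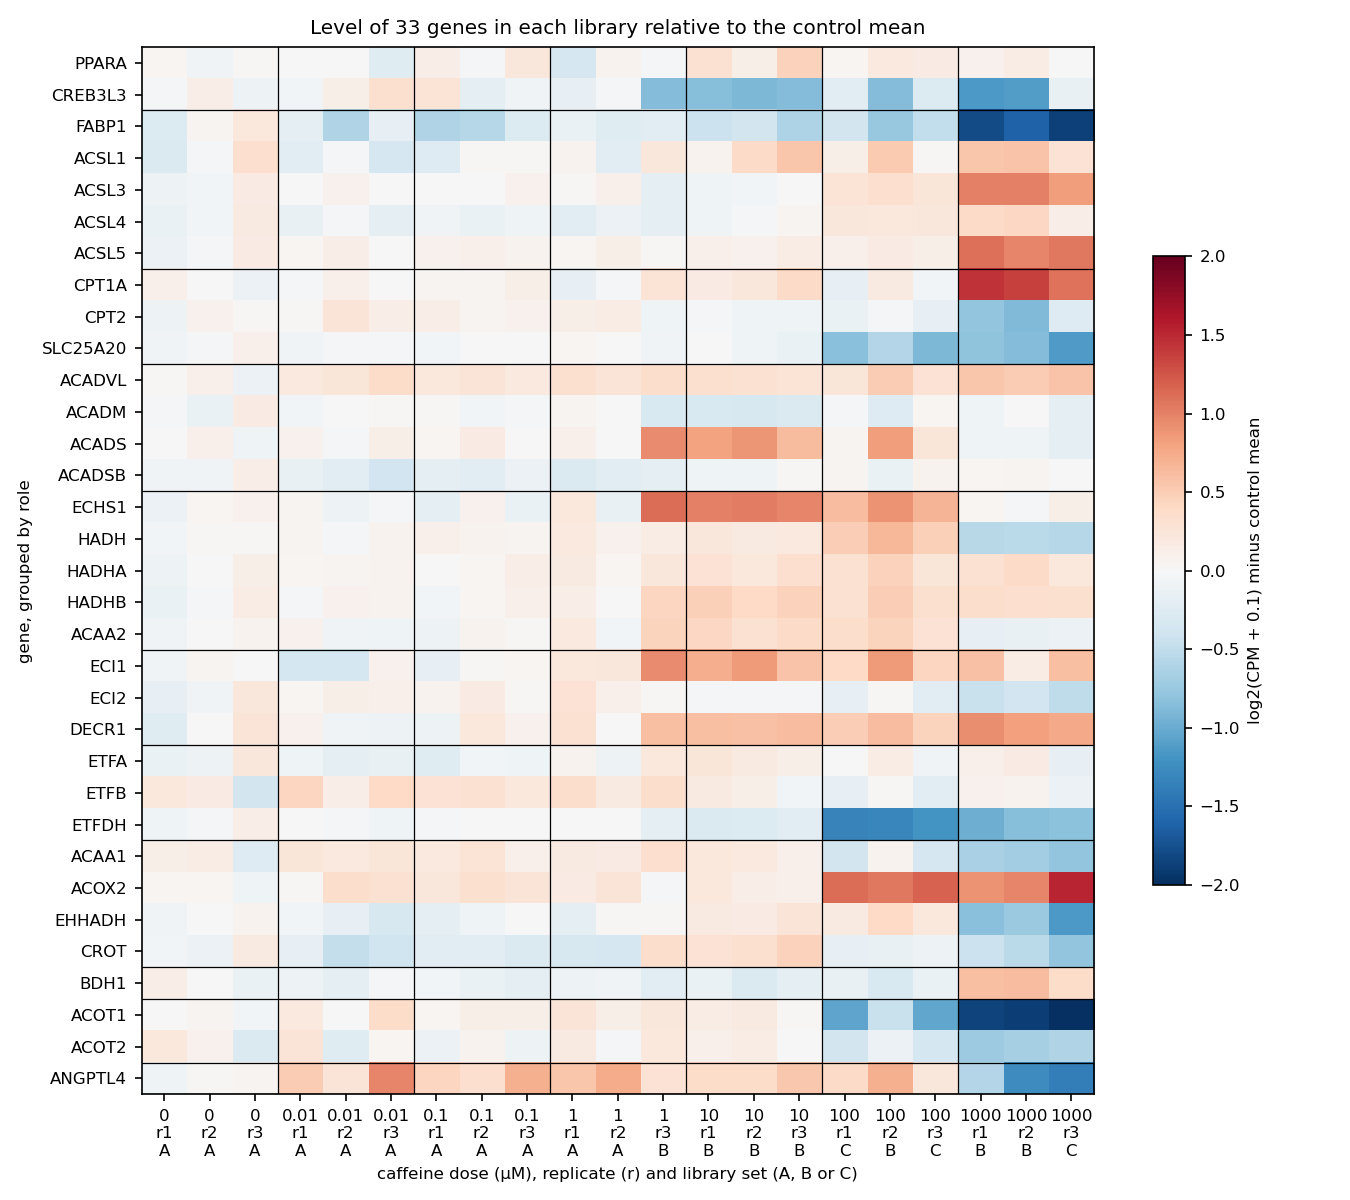
Heat map of 33 genes (rows, grouped by role; PDK4 and FGF21 left out for low counts) in each of the 21 libraries (columns, by dose in µM, replicate and library set). Colour is log2(CPM + 0.1) minus the mean of the 3 control libraries, with the scale ending at 2 either way; the 3 columns of 1000 µM show both red rows such as CPT1A and blue rows such as ACOT1 and FABP1, and ECHS1 and CREB3L3 change colour at replicate 3 of 1 µM, a set B library.

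Of the transcription factors, PPARA was not called at 1000 µM and CREB3L3 was called lower in the fit without the set term alone. PPARA (ENSG00000186951.16, chr22:46150521-46243756), the fatty acid sensing receptor, was at 61.9, 57.5 and 60.9 CPM in the controls, 61.8, 68.8 and 67.1 CPM at 100 µM and 63.5, 66.8 and 59.7 CPM at 1000 µM. The control and 1000 µM libraries overlapped. The log2 fold change at 1000 µM was 0.08 ± 0.11 (SE; edgeR adjusted p = 0.564), and 0.03 with the set term. Across the 7 groups the mean of PPARA ran from 56.5 ± 8.13 CPM at 1 µM to 73.9 ± 8.46 CPM at 10 µM (SD, n = 3), and at 10 µM the test was not passed (edgeR adjusted p = 0.0694). CREB3L3, a liver transcription factor of the fasting response that acts with PPARA, differed between library sets within a dose. Its level was 47.5 and 51.4 CPM in replicates 1 and 2 of 1 µM but 29.1 CPM in replicate 3, the set B library. At 1000 µM it was 23.8 and 24.3 CPM in the set B replicates and 47.8 CPM in replicate 3. The edgeR call at 1000 µM (-0.74, adjusted p = 0.0168) was not made with the set term (-0.31), nor without replicate 2 of 0 µM (-0.67, adjusted p = 0.0557) or without replicate 1 or 2 of 1000 µM (-0.56 and -0.58, adjusted p = 0.0883 and 0.0848). Inside set B CREB3L3 was lower at 1000 than at 10 µM by a log2 difference of -0.30 (edgeR adjusted p = 0.00102).

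Of the 5 genes of fatty acid binding and activation, 4 rose and FABP1 fell at 1000 µM, with 2 higher and 1 lower in the set term fit. FABP1 (ENSG00000163586.9, chr2:88122982-88128116), the abundant fatty acid binding protein of liver cytosol whose upstream bases are printed above, was at 330.6, 414.9 and 463.1 CPM in the controls, 309.2, 236.3 and 283.1 CPM at 100 µM and 115.6, 130.2 and 109.1 CPM at 1000 µM. All 1000 µM libraries lay below all others. Its log2 fold change at 1000 µM was -1.77 ± 0.14 (SE; edgeR adjusted p = 3.1e-09), and -1.76 with the set term. The fall at 100 µM, -0.55 without the set term, was not called with it (-0.57, edgeR adjusted p = 0.167).

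ACSL5 (ENSG00000197142.10, chr10:112374018-112428380), an acyl-CoA synthetase of mitochondria and endoplasmic reticulum, held 99.8, 105.1 and 120.7 CPM in the controls, 116.0, 121.8 and 117.3 CPM at 100 µM and 231.5, 213.3 and 224.9 CPM at 1000 µM. The 1000 µM libraries were apart from all the rest, and 100 µM overlapped the controls. The log2 fold change at 1000 µM was 1.04 ± 0.07 (SE; edgeR adjusted p = 3.81e-10), and 1.10 with the set term. ACSL3, the synthetase of lipid droplets, averaged 307.9 ± 31.9 CPM without caffeine and 593.5 ± 37.9 CPM at 1000 µM (SD, n = 3). It rose by 0.95 on the log2 scale (1.23 with the set term), and had already risen by 0.28 at 100 µM (0.61 with the set term). ACSL4, which prefers arachidonate, rose by 0.31 at 1000 µM, a call lost with the set term (0.36, edgeR adjusted p = 0.0586). ACSL1, the main synthetase of normal liver, was scarce at 2.37 ± 0.538 CPM in the controls. Its call at 1000 µM (0.48, edgeR adjusted p = 0.0443) was lost with the set term (0.28) and without any one of 8 libraries, 4 of them in other dose groups.

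The carnitine shuttle split, with its first enzyme higher and the other members lower. CPT1A (ENSG00000110090.13, chr11:68754620-68844410), the rate-controlling enzyme of mitochondrial fatty acid entry, was at 48.3, 45.3 and 41.6 CPM in the controls, 40.2, 50.9 and 43.3 CPM at 100 µM and 122.4, 116.7 and 95.5 CPM at 1000 µM. The 1000 µM libraries stood apart from the controls and from 100 µM, which overlapped each other. At 10 µM CPT1A was at 50.6, 52.6 and 58.6 CPM, above the controls, and was not called (0.26, edgeR adjusted p = 0.135; -0.11 with the set term). CPT1A rose by a log2 fold change of 1.31 ± 0.12 (SE; edgeR adjusted p = 1.49e-08), by 1.04 with the set term, and by 1.12 at 1000 over 10 µM inside set B. Between 100 and 1000 µM its log2 CPM rose by 1.23 inside set B and by 1.19 inside set C. SLC25A20, the carnitine acylcarnitine carrier of the inner membrane, was at 33.6, 34.2 and 37.7 CPM in the controls and at 20.03, 19.1 and 16.0 CPM at 1000 µM. Its fall was of similar size at 100 µM (log2 fold change -0.77, and -0.49 with the set term) and 1000 µM (-0.93, and -0.75), and 1000 against 100 µM did not pass without the set term (-0.16, edgeR adjusted p = 0.172) but did with it (-0.26, adjusted p = 0.007). CPT2, which remakes acyl-CoA in the matrix, fell by 0.63 at 1000 µM (edgeR adjusted p = 0.000238), and by 0.49 with the set term. Its 1000 µM libraries were at 19.3 and 18.03 CPM in set B and at 28.0 CPM in set C, nearer the controls at 31.3, 35.5 and 33.9 CPM. The step of CPT2 from 100 to 1000 µM was -0.81 in set B and -0.11 in set C on the log2 CPM scale. The CPM ratio of CPT1A to CPT2 was 1.35 ± 0.171 in the controls, 1.44 ± 0.123 at 100 µM and 5.41 ± 1.73 at 1000 µM (SD, n = 3), with the lowest 1000 µM library at 3.41 and the highest control at 1.55.

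**Figure D2:**
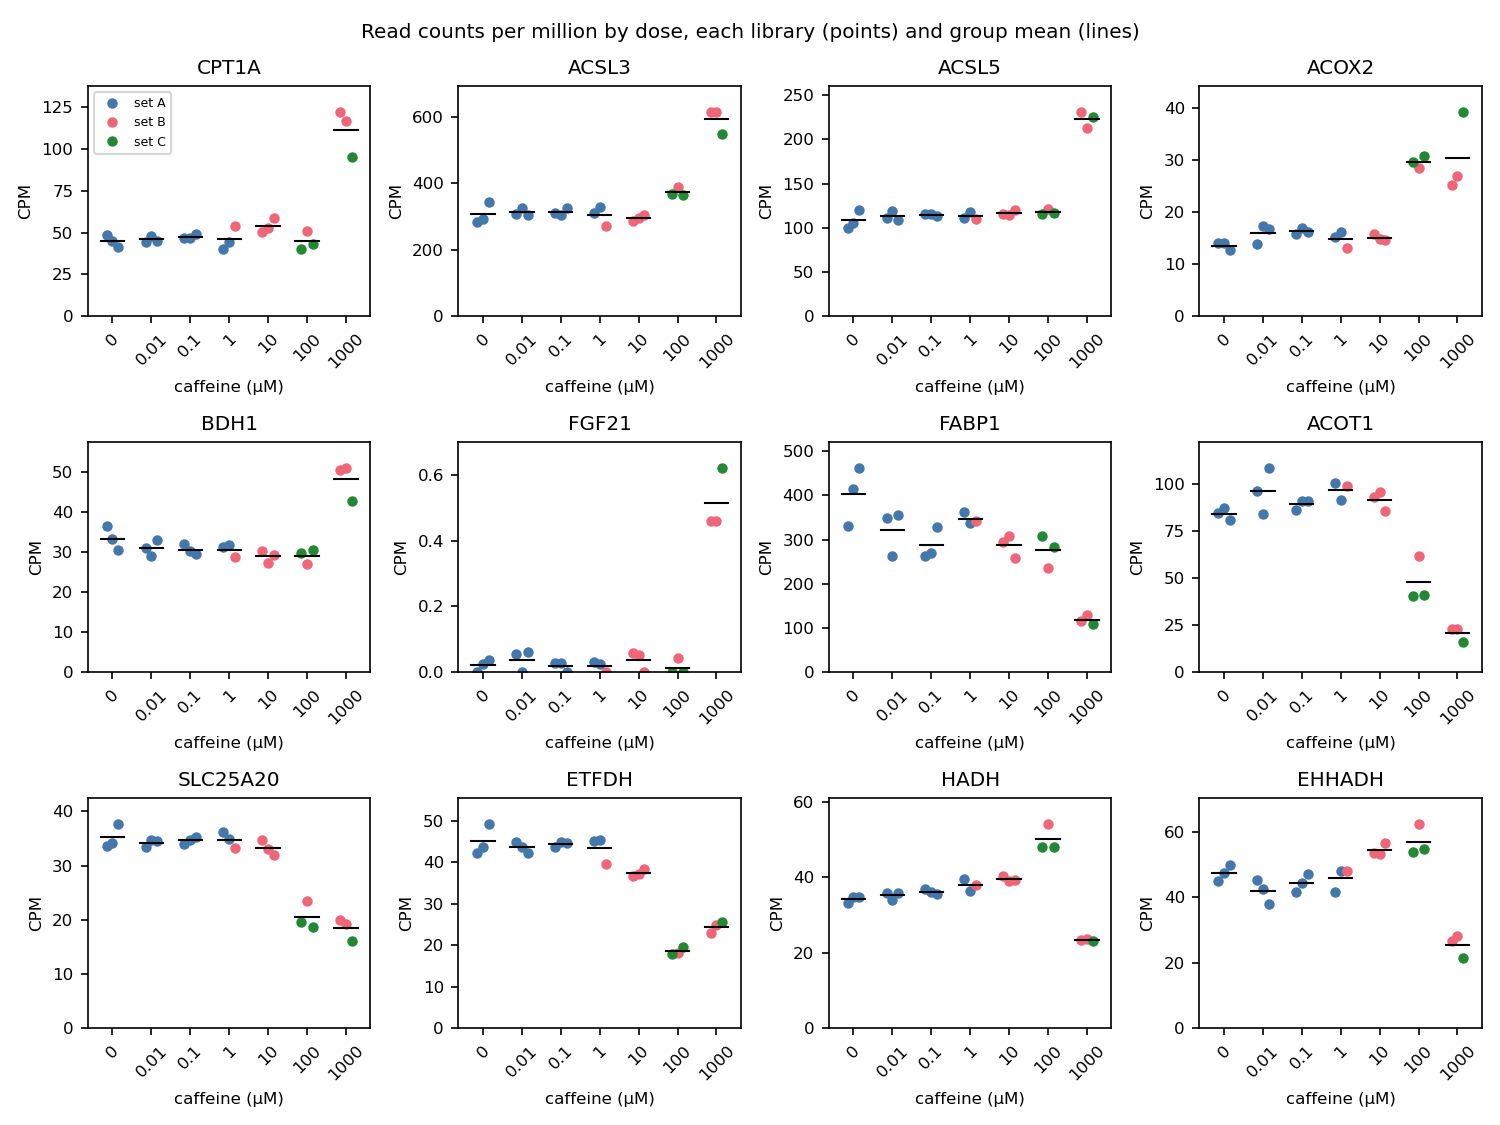
CPM (vertical axes, each from 0) of 12 genes by caffeine dose in µM (horizontal axes, evenly spaced); each point is a library coloured by its library set and each line is the mean of 3 libraries. The genes were picked for display after their values were seen; CPT1A and ACSL5 have all 3 of their highest libraries at 1000 µM, SLC25A20 and ETFDH are already low at 100 µM, and HADH and EHHADH are highest at 100 µM and lowest at 1000 µM.

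Among the 4 mitochondrial acyl-CoA dehydrogenases, ACADVL rose at 1000 µM and the others were not called without the set term. ACADVL, which acts on very long chains, averaged 191.1 ± 14.8 CPM without caffeine and 277.8 ± 6.63 CPM at 1000 µM (SD, n = 3). It rose by 0.54 on the log2 scale (0.52 with the set term; edgeR adjusted p = 8.66e-06 and 0.00425). Its control libraries, at 194.5, 203.9 and 174.9 CPM, lay below every treated library, of which the lowest was 217.5 CPM at 0.01 µM. Those 6 dose comparisons share the 3 control libraries. ACADM, the medium-chain enzyme, and ACADSB, which acts on short branched chains, had log2 fold changes of -0.11 and 0.03 at 1000 µM (edgeR adjusted p = 0.364 and 0.783), and 0.21 and -0.04 with the set term. ACADS, the short-chain enzyme, was at 12.3, 12.4 and 11.4 CPM at 1000 µM against 13.1, 14.1 and 12.4 CPM in the controls (log2 fold change -0.13, edgeR adjusted p = 0.607). Its set B libraries at lower doses were far higher, at 25.6 CPM in replicate 3 of 1 µM and 23.2, 24.4 and 20.5 CPM at 10 µM. With the set term ACADS fell by 0.91 at 1000 µM (edgeR adjusted p = 0.000999), and inside set B the difference from 10 µM was also -0.91.

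Of the 5 later enzymes of the mitochondrial cycle, HADH alone was called in both fits at 1000 µM. HADH, the short-chain hydroxyacyl-CoA dehydrogenase, had a mean of 34.4 ± 0.977 CPM in the controls, 50.2 ± 3.56 CPM at 100 µM and 23.4 ± 0.265 CPM at 1000 µM (SD, n = 3). It rose at 100 µM (log2 fold change 0.55, edgeR adjusted p = 3.02e-06, and 0.61 with the set term) and fell below control at 1000 µM (-0.55, edgeR adjusted p = 1.41e-06, and -0.52). The step from 100 to 1000 µM was -1.20 inside set B and -1.05 inside set C on the log2 CPM scale. ECHS1, the enoyl-CoA hydratase, was at 96.6, 107.6 and 112.3 CPM in the controls and at 108.0, 103.2 and 114.7 CPM at 1000 µM. At 1 µM it was at 122.5 and 95.5 CPM in replicates 1 and 2 and at 228.6 CPM in replicate 3, near the 206.7 to 214.0 CPM of 10 µM. Its log2 fold change at 1000 µM was 0.04 (edgeR adjusted p = 0.872) and -1.0 with the set term (adjusted p = 0.000158), and inside set B it was -1.03 against 10 µM.

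ACAA2, the last thiolase of the cycle, behaved likewise, with -0.15 at 1000 µM (edgeR adjusted p = 0.198), -0.50 with the set term (adjusted p = 0.00751) and -0.56 inside set B, and 13.2% of its 50-base stretches also occur in other transcripts. HADHA and HADHB, the subunits of the trifunctional protein, rose by 0.30 and 0.33 at 1000 µM (edgeR adjusted p = 0.00319 and 0.0066), and neither was called with the set term (0.24 and -9.35e-05). Their CPM ratio stayed between group means of 2.37 at 10 µM and 2.71 at 0.1 µM, and the genes overlap head to head on chromosome 2. For the 3 enzymes that deal with double bonds, no call at 1000 µM was made in both fits. DECR1, the dienoyl-CoA reductase, averaged 20.2 ± 3.54 CPM without caffeine and 35.9 ± 2.16 CPM at 1000 µM (SD, n = 3). It rose by 0.83 (edgeR adjusted p = 2.7e-05), and was at 0.44 with the set term (adjusted p = 0.0883). ECI1, an enoyl-CoA isomerase, rose by 0.46 (edgeR adjusted p = 0.0372) and stood at -0.23 with the set term. That call was also lost without any one control library, without replicate 1 of 1000 µM or without replicate 3 (edgeR adjusted p = 0.0639 to 0.119). ECI2, the peroxisomal and mitochondrial isomerase, fell by 0.45 (edgeR adjusted p = 0.000344), was at -0.22 with the set term (adjusted p = 0.243) and at -0.41 inside set B.

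In the electron transfer step ETFDH fell while ETFA and ETFB were not called. ETFDH, the oxidoreductase that passes electrons to ubiquinone, was at 42.4, 43.6 and 49.4 CPM in the controls, 17.8, 18.1 and 19.7 CPM at 100 µM and 23.0, 24.8 and 25.5 CPM at 1000 µM. The lowest levels were at 100 µM, and none of the 3 groups overlapped. Its log2 fold change was -1.28 ± 0.08 at 100 µM (SE; edgeR adjusted p = 4.92e-10) and -0.89 ± 0.08 at 1000 µM (adjusted p = 1.84e-08), and -1.14 and -0.71 with the set term. ETFDH was thus higher at 1000 than at 100 µM by 0.40 (edgeR adjusted p = 0.000532), with 0.40 inside set B and 0.45 inside set C. ETFA and ETFB, the subunits of the electron carrier itself, had log2 fold changes of 0.03 and -0.00489 at 1000 µM (edgeR adjusted p = 0.802 and 0.977), and -0.11 and -0.02 with the set term. Of ETFA, ETFB and ETFDH, ETFB varied most among the controls, at 413.8, 398.4 and 275.1 CPM. The CPM ratio of ETFDH to ETFA was 0.247 ± 0.0144 in the controls, 0.1 ± 0.0122 at 100 µM and 0.131 ± 0.0214 at 1000 µM (SD, n = 3).

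All 4 peroxisomal genes changed at 1000 µM in both fits, ACOX2 upward and the others downward. ACOX2 (ENSG00000168306.13, chr3:58505136-58537319), the oxidase of branched chains and bile acid intermediates, was at 14.0, 14.0 and 12.8 CPM in the controls, 29.6, 28.4 and 30.9 CPM at 100 µM and 25.3, 26.9 and 39.4 CPM at 1000 µM. Both high doses lay above the controls and overlapped each other. The log2 fold change was 1.12 ± 0.13 at 100 µM (SE; edgeR adjusted p = 1.69e-06) and 1.16 ± 0.13 at 1000 µM (adjusted p = 4.58e-07), and 1.16 and 1.28 with the set term. EHHADH, the bifunctional enzyme and a classic PPARA target, went from 47.4 ± 2.56 CPM to 57.0 ± 4.82 CPM at 100 µM and 25.3 ± 3.58 CPM at 1000 µM (SD, n = 3). It fell at 1000 µM by 0.90 (0.92 with the set term), whereas the rise at 100 µM (0.27, edgeR adjusted p = 0.0383) was not called with the set term (0.35). Between 100 and 1000 µM EHHADH dropped by 1.17 (edgeR adjusted p = 3.3e-08). ACAA1, the peroxisomal thiolase, fell by 0.72 at 1000 µM (0.80 with the set term), with no call at 100 µM. CROT, which exports shortened chains as carnitine esters, fell by 0.58 (edgeR adjusted p = 0.00291), and by 1.22 with the set term. At 1 µM CROT was at 10.3 and 10.2 CPM in replicates 1 and 2 and at 16.5 CPM in replicate 3, the set B library. Of their exon bases, 21.2% in ACAA1, 29.8% in ECI2 and 13.8% in ETFDH lie in exons of another gene, and strand use in the counting is not given in the sources used here.

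BDH1, the ketone body dehydrogenase and the one ketogenic gene among the 35, was at 36.5, 33.3 and 30.5 CPM in the controls, 29.9, 27.0 and 30.5 CPM at 100 µM and 50.6, 51.1 and 42.8 CPM at 1000 µM. The 1000 µM libraries were above all others. BDH1 rose by 0.53 ± 0.09 (SE; edgeR adjusted p = 5.93e-05), by 0.68 with the set term and by 0.78 over 10 µM inside set B.

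The acyl-CoA thioesterases, which release free fatty acids from acyl-CoA, fell. ACOT1 (ENSG00000184227.8, chr14:73537114-73543794), the cytosolic enzyme, was at 84.6, 87.5 and 81.1 CPM in the controls, 40.8, 62.1 and 41.1 CPM at 100 µM and 23.2, 22.9 and 16.2 CPM at 1000 µM. The 3 groups did not overlap, and the level was lower at each step. The log2 fold change of ACOT1 was -0.81 ± 0.14 at 100 µM (SE; edgeR adjusted p = 0.000139) and -2.02 ± 0.15 at 1000 µM (adjusted p = 1.16e-09), and -0.52 and -1.90 with the set term. Its neighbour ACOT2, the mitochondrial enzyme, fell by 0.68 at 1000 µM (edgeR adjusted p = 0.000133), and by 0.79 with the set term. These are near copies: 53.1% of the 50-base stretches of ACOT1 and 37.3% of those of ACOT2 also occur in other transcripts, so the split of reads between them is uncertain. The CPM ratio of ACOT1 to ACOT2 was 0.718 ± 0.112 in the controls, 0.487 ± 0.0733 at 100 µM and 0.279 ± 0.0626 at 1000 µM (SD, n = 3), an unequal change of the pair.

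The fuel switch and secreted genes were all near the limit of detection. FGF21 (ENSG00000105550.9, chr19:48755559-48758333), the fasting hormone of liver, had 0, 1 and 1 counts in the controls, 0, 2 and 0 at 100 µM and 18, 13 and 15 at 1000 µM. The 1000 µM libraries were apart from all others, where no library had more than 2 counts. The summed counts of 46 against 2 correspond to a depth-scaled ratio of 24.5 (exact 95% interval 6.40 to 208.0, counting error only), and the level at 1000 µM was 0.514 ± 0.0935 CPM (SD, n = 3). PDK4, the kinase that shuts pyruvate dehydrogenase in fasting, had 0, 0 and 1 counts in the controls and 5 in each 1000 µM library, a ratio of 15.9 (exact 95% interval 2.45 to 671.3). No other library had more than 2. ANGPTL4 (ENSG00000167772.12, chr19:8363289-8374373), a secreted inhibitor of lipoprotein lipase and a PPAR target, was at 0.764, 0.831 and 0.844 CPM in the controls, 1.09, 1.39 and 0.971 CPM at 100 µM and 0.51, 0.283 and 0.249 CPM at 1000 µM. The 1000 µM libraries were below the controls and the 100 µM libraries above them. Its log2 fold change at 1000 µM was -1.17 ± 0.28 (SE; edgeR adjusted p = 0.00154), and -0.65 with the set term, where the test was not passed (adjusted p = 0.248). At 1000 against 100 µM ANGPTL4 fell by 1.68, and by 1.85 with the set term.

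**Figure D3:**
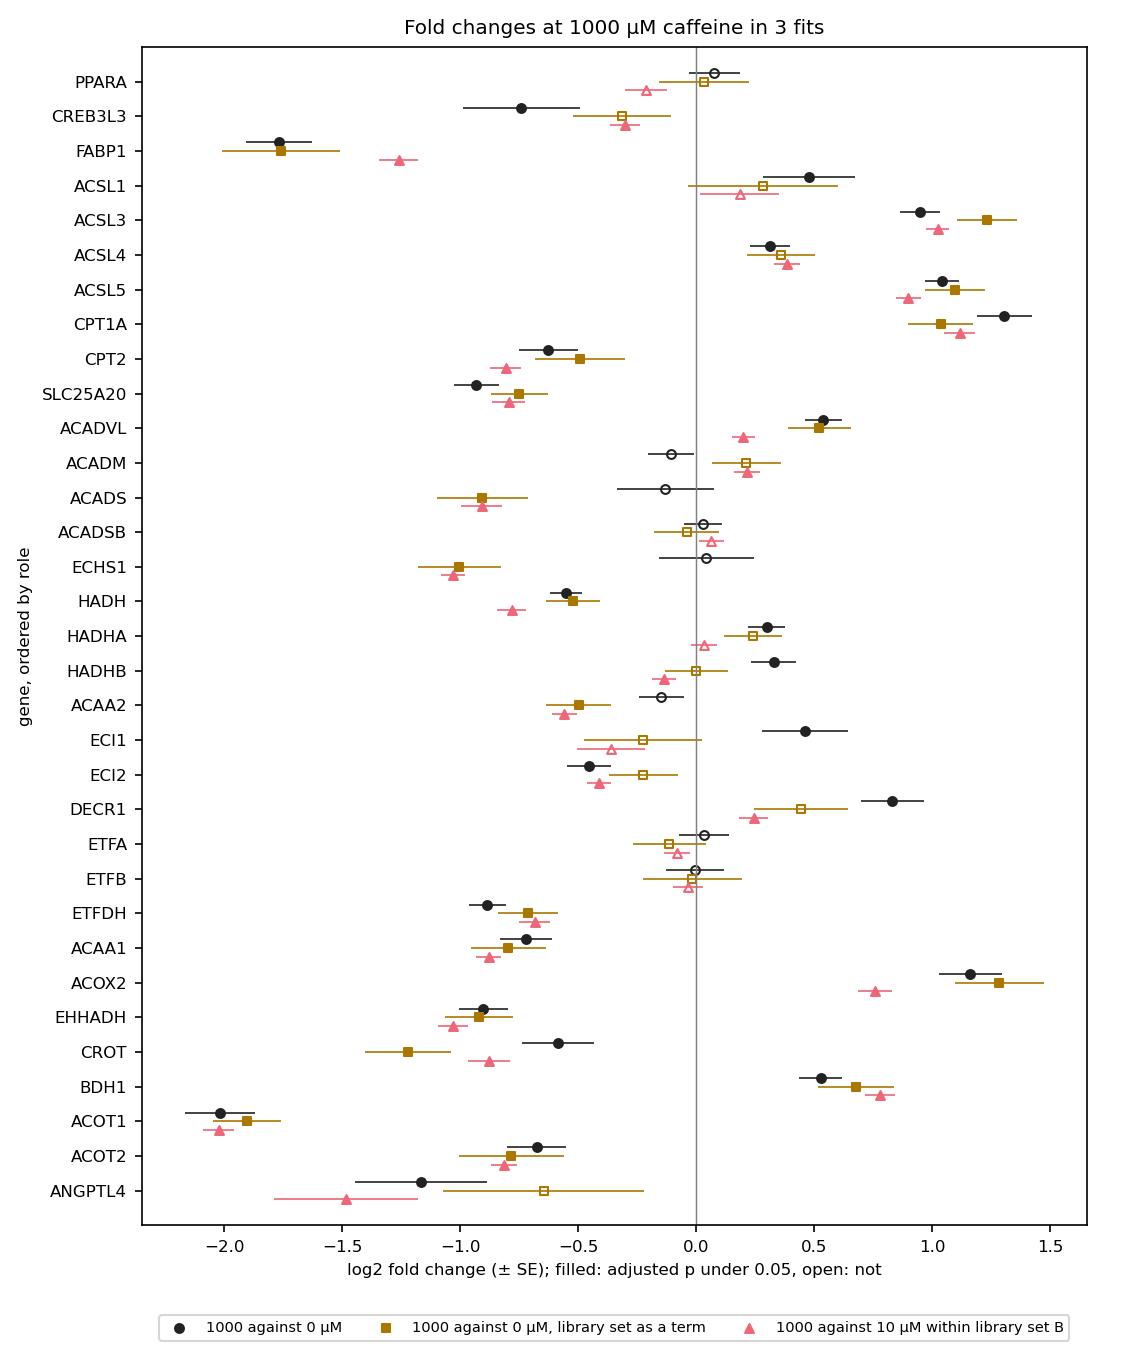
Log2 fold change ± SE (horizontal axis) of 33 genes (vertical axis, ordered by role) at 1000 µM: against 0 µM (circles), against 0 µM with the library set as a term (squares) and against 10 µM inside set B (triangles); filled marks passed an edgeR adjusted p of 0.05. The marks of CPT1A, ACSL5, FABP1, ACOT1 and EHHADH lie on the same side of 0 in all 3 fits, while those of ECHS1 and ACADS lie near 0 without the set term and near -1 in the other fits.

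The calls at 10 µM rested on comparisons between sets A and B. All 5 later enzymes of the mitochondrial cycle rose there without the set term, led by ECHS1 with 1.0 (edgeR adjusted p = 0.00554), and so did ACADVL, ACADS, ECI1 and DECR1. CREB3L3, FABP1, ACADM and ETFDH fell, by 0.88, 0.49, 0.31 and 0.27. With the set term ECHS1 was at -0.07, ACADS at -0.13, ECI1 at -0.0084, ACADM at 0.03, CREB3L3 at -0.11, FABP1 at -0.45 and ETFDH at -0.07. ACADVL was at 0.24, HADH at 0.20, HADHA at 0.17, DECR1 at 0.16, HADHB at 0.08 and ACAA2 at 0.0002. None of the 13 passed the edgeR test with the set term. The count of 13 was 4 without replicate 1 of 10 µM, 6 without replicate 2 or replicate 3, and 7 without replicate 1 or 3 of 0 µM. Every 10 µM library is in set B and every control in set A, so dose and set cannot be told apart here except through the 1 µM group. In that group only replicate 3 is in set B.

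At 0.01, 0.1 and 1 µM no member passed edgeR's test, where 0.0279%, 0% and 0.106% of all features did, and 6, 4 and 10 of the 34 had an unadjusted p under 0.05, beside 15.0%, 9.48% and 15.7% of all features. The median log2 fold changes of the 34 were 0.02, 0.02 and 0.06. ANGPTL4 had the highest value of any member other than FGF21 at each of these doses, 0.67, 0.55 and 0.59 (edgeR adjusted p = 0.236, 0.516 and 0.263). In the set term fit ACADVL alone was called, at 0.01 µM (0.27, edgeR adjusted p = 0.0499), where 3.02%, 0.0223% and 0.629% of all features were called at these doses. DESeq2's Wald test called it at 0.01 and 1 µM (0.28 and 0.31).

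The rise or fall between 100 and 1000 µM could also be read inside the library sets that hold both doses. On the log2 CPM scale 26 of the 33 genes other than FGF21 (78.8%) had the same sign of difference in sets B and C, beside 74.7% of all features, and the size could differ, as for CPT2. FABP1 was lower by -0.94 in set B and -1.44 in set C, EHHADH by -1.19 and -1.34, and ACOT1 by -1.43 and -1.33. ACSL5 was higher by 0.87 and 0.95. ACOX2 had opposite signs (-0.12 and 0.38) and was not called between these doses. The smaller differences of ACADS, ACOT2 and CROT were not called without some single libraries: without replicate 2 of 100 µM ACADS was at -0.28 (edgeR adjusted p = 0.265) and ACOT2 at -0.30 (adjusted p = 0.0844), and without replicate 3 of 100 µM CROT was at -0.43 (adjusted p = 0.0614). Leaving out any one 1000 µM replicate moved ACADS to an edgeR adjusted p of 0.0732 to 0.0752. ACOT2 was not called without replicate 1 or 2 of 1000 µM (edgeR adjusted p = 0.0683 and 0.0514), nor CROT without replicate 2 or 3 (adjusted p = 0.0525 and 0.0811).

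Other genes of the pathway were counted from a list of 70, of which 69 were in the table and 59 were tested. At 1000 µM 49 of the 59 (83.1%) passed, 20 higher and 29 lower, where 57.6% of all features did (28.5% higher and 29.1% lower). With the set term 42 of 59 (71.2%) did, 16 higher and 26 lower, where 38.0% of all features did (18.2% higher and 19.8% lower). Their median log2 fold change was -0.29 in both fits, beside -0.01 and -0.03 over all features. PPARGC1A, the coactivator of PPARA in fasting, averaged 17.97 ± 1.53 CPM without caffeine and 71.8 ± 7.95 CPM at 1000 µM (SD, n = 3). It rose by 2.0 on the log2 scale (2.18 with the set term; edgeR adjusted p = 7.82e-11). PRKAA2, a catalytic subunit of the AMP-activated kinase, rose by 1.49 (1.26 with the set term), and VNN1, a pantetheinase regulated by PPARA, by 1.28 (1.65). CYP4F2, which hydroxylates fatty acids at the omega end, fell by 2.88 (-2.51 with the set term) from 12.9 ± 2.15 CPM, and CIDEC, a lipid droplet protein, fell by 2.07 (-1.90) and UCP2, a mitochondrial carrier, fell by 2.06 (-2.62). All 6 were called in both fits.

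Levels between genes were compared per kilobase of exon, with exon lengths from GENCODE 29. In the controls FABP1 had the highest level of the 35 at 163.1 ± 27.2 CPM per kilobase (SD, n = 3), followed by HADHA at 78.5 ± 5.94, ACSL4 at 70.6 ± 8.23 and ECHS1 at 65.2 ± 4.98, where each of the last 3 lay within 1 SD of ACSL4 of its neighbour. At 1000 µM HADHA was highest at 96.6 ± 5.75 CPM per kilobase, with ACSL4 at 87.7 ± 9.26 and ACSL3 at 82.0 ± 5.23 each within an SD of the next, and FABP1 was at 47.9 ± 4.38, rank 8. ACOT1 moved from rank 7 to rank 18, and CPT1A from rank 23 (6.87 ± 0.511 CPM per kilobase) to rank 14 (17.0 ± 2.16). PDK4, FGF21 and ANGPTL4 held the last 3 ranks in both groups, below ACSL1 and CROT.

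**Figure D4:**
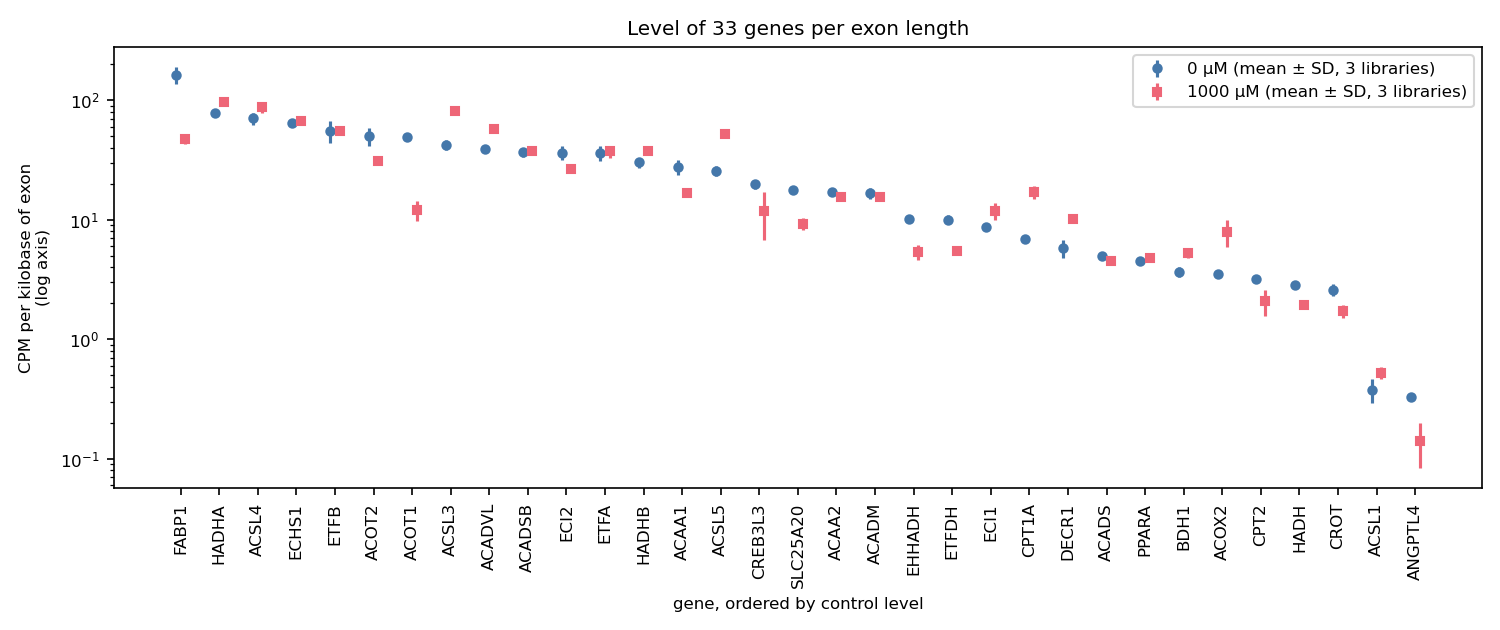
Level in CPM per kilobase of exon (vertical log axis) of 33 genes (horizontal axis, ordered by control level; PDK4 and FGF21 left out for low counts), mean ± SD of 3 libraries at 0 µM (blue circles) and 1000 µM (red squares). The control levels span from 163.1 for FABP1 to 0.327 for ANGPTL4; FABP1 and ACOT1 drop while ACSL3, ACSL5 and CPT1A climb.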

How the data were processed

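Gene counts of the 21 libraries were deposited by the authors as raw read counts per gene; HISAT2, DESeq2 and the build GRCh38 are named in the submitters' processing notes, and the counter, annotation and strand setting are not given in the sources used here. Of 37637 features 32937 had Ensembl identifiers, 24852 matched a symbol and 4700 were unannotated; 21 further per-sample columns were not used. The counts were scaled by TMM, filtered with filterByExpr (minimum count 10, by group) and tested with edgeR 4.0.16 (robust quasi-likelihood F-test, R 4.3.3) in 1 fit over 21 libraries, with Benjamini-Hochberg adjustment over 17951 features and a threshold of 0.05. The test was tried on simulated data for 1000 against 0 µM (17592 genes): of 200 genes changed 2-fold, 137 were recovered without and 44 with the library set as a term. Library sets came from average linkage on mitochondrial mRNAs (mean silhouette 0.571 for 3 sets, 0.525 for 2). Alternatives were DESeq2 1.42.0 (test and size factors), limma 3.58.1 voom, other filters, a replicate block and leaving out each library. The members, gene lists and tests were chosen with earlier results of these data known. Every member is named; values at 0, 100 and 1000 µM are given for PPARA, CPT1A, FGF21 and members called at 1000 µM with an absolute log2 fold change of at least 1, and the 6 called other pathway genes with the largest absolute log2 fold changes at 1000 µM, in either direction, are named. Some genes that the rule names besides these are not reported here. Some further library values were chosen after they were seen. The series calls the libraries biological replicates, but separate cultures are not described, so p-values measure the spread between these libraries. No pair of libraries of a group agreed within sampling noise (chi-square per feature from 3.59). The replicate numbers did not pair the samples: deviations of same-numbered libraries had mean correlations of -0.108 to 0.152 over 21 pairs of groups, and 0 pairs had all of them over 0.1. Intervals cover counting error only.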

Additional observations from a re-analysis of the deposited data

How the results depend on the processing

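A fit holding the library set called 1 member at 0.01 µM, 0 at 10 µM and 7 at 100 µM, in place of 0, 13 and 16. Over all features that fit called 3.02%, 0.0279% and 17.3%, in place of 0.0279%, 14.8% and 46.6%. The log2 fold change changed sign at 10 µM for ACADM (0.0304), ACADS (-0.13), ECHS1 (-0.0691) and ECI1 (-0.0084), at 100 µM for ECHS1 (-0.29) and ECI1 (-0.0828), and at 1000 µM for HADHB (-9.35e-05) and ECI1 (-0.23). DESeq2's Wald test called 1 member at 0.01 µM and 1 at 1 µM, and without a filter on low counts 7 were called at 10 µM; the cause was not tested. Counts in this paragraph are over all 34 genes tested, with FGF21 among them, whose call at 1000 µM was favoured by the filter. Without FGF21 the fit lacking the set term called 25 of 33 at 1000 µM against 0. It called 18 at 1000 against 100 µM and 22 at 1000 against 10 µM. The remaining counts for the 8 comparisons stayed within 1.5 times under DESeq2 size factors, limma-voom, a mean of at least 5 CPM, only the groups compared and the replicate block. Leaving out each library in turn, done without the set term only, gave 0 members each time for 0.01, 0.1 and 1 µM against control. The lowest and highest were 4 and 14 for 10 µM, 12 and 21 for 100 µM, 23 and 26 for 1000 µM, 16 and 21 for 1000 against 100 µM, and 22 and 24 for 1000 against 10 µM. The replicate block gave 0, 0, 0, 11, 15, 26, 19 and 23 members for these comparisons in the same order. Only ACADM and HADH at 10 µM and ACSL4 at 100 µM lost their call there, and the replicate numbers do not pair the samples. For settings other than the set term, shares over all features are not given here. Whether those shifts in count concern the members or all features was not tested. Over all settings, single called members kept direction and call in 2668 refits, lost the call in 153 and changed sign in 8. Most of these refits left out a single library (1934 kept direction and call, 103 lost the call). With the library set as a term, 65 kept direction and call, 24 lost the call and 8 changed sign. On simulated data the fit with the set term recovered fewer changed genes. Those data held no difference between library sets and took their spread from a fit without the set term. They therefore do not measure what the set term fit recovers here. A call missing in the set term fit does not by itself show that a gene was level. FGF21 and PDK4 are limited by depth.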
